A study of Mus musculus with 21 samples.

Results

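Spinal cord of Cre-free control mice was compared between the study's later age, labelled P60, and its earlier age, postnatal day 21 (P21). The comparison took in every control library of the series, 7 of 21, with 3 at P60 and 4 at P21 and 1 mouse per library, and they were chosen by their genotype and age labels. The series was made to study removal of TDP-43, an RNA-binding protein encoded by Tardbp, from oligodendrocytes. All control mice were C57BL/6 of genotype Tardbp-fl/fl: both Tardbp alleles carried loxP sites, and no Cre was present to delete them. P21 controls were 21 days old, and 2 were labelled female and 2 male. P60 controls were 74 days old, and all 3 were labelled female. Mice heterozygous for the deletion (cHET) were set beside them, of genotype Cnp-Cre; Tardbp-fl/+, in which Cre is driven from the oligodendrocyte gene Cnp. The cHET mice numbered 4 at 21 days and 3 at 60 to 65 days, the latter labelled male. The homozygous deletion mice (cKO; Cnp-Cre; Tardbp-fl/fl), 4 at P21 and 3 at P60, enter only the check of sex labels and an alternative fit of all libraries. RNA came from frozen whole cord in Trizol.

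The age groups were not prepared alike. In both genotypes the P21 kit was Illumina's TruSeq RNA Sample Prep Kit. The P60 kit was the NEXTflex Rapid Directional RNA-Seq Kit, so age and kit cannot be told apart by any fit. For that reason large shifts are described: a gene is called higher or lower at P60 when limma gave an adjusted p under 0.05, the levels differed by at least 2-fold and no library of one age overlapped the other age. The words rose and fell are kept for called genes. A level is the deposited signal per base of gene, rescaled so that each library sums to 1000000, and a log2 difference is P60 minus P21 on log2(level + 0.5). Because the signal is per base, levels of different genes can be set side by side.

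Myelin of the cord is made by oligodendrocytes, which arise from dividing precursors, pass through a short newly formed stage and then wrap axons. Building the sheath in early postnatal life draws on large amounts of myelin protein, cholesterol and galactolipid, and in adult cord the finished sheath is maintained with slower synthesis. Over the same weeks astrocytes, vessels and neuronal surroundings leave their growth state.

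Deposited totals, rounded, were 27820000 to 29080000 at P21 and 12490000 to 13020000 at P60. They follow normalization, so read depth is unknown. Mbp, Snap25, Gfap and the motor neuron gene Chodl were present in every library. Log2 levels correlated across genes at 0.991 to 0.993 within P21, 0.987 to 0.990 within P60 and 0.939 to 0.946 between the ages, a description over 14931 genes that are not independent. Genes of the mitochondrial genome held 6.49% to 7.02% of the signal at P21, and 16.1%, 10.2% and 13.1% in P60 controls 1, 2 and 3. Pseudogenes held 1.05% to 1.14% at P21 and 1.80% to 2.30% at P60. The sex labels of the P60 controls went against their Y-linked transcripts. Ddx3y, a Y-linked RNA helicase, was at 68.8 to 85.9 in the 3 P60 controls labelled female. It was at 0.583 to 4.24 in the 6 P21 libraries labelled female of all genotypes, at 83.6 to 93.0 in the 6 labelled male, and at 64.4 to 88.2 in the 6 P60 libraries labelled male. Kdm5d, Uty and Eif2s3y in the P60 controls were likewise far above the P21 libraries labelled female. With only the 2 P21 controls labelled male kept, a setting added after these values were seen, 562 genes were called higher and 479 lower, beside 564 and 577 with all 4, and 69 of the 70 called named genes measured in both settings kept their call. Xist was not analysed here.

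Of 14931 genes tested, 564 were called higher at P60 (3.78%) and 577 lower (3.86%), 7.64% in either direction. An adjusted p alone passed for 55% of all genes, and the ages did not overlap for 55.6%, which is why neither alone is used as a call. The all-gene median log2 difference was -0.10. In cHET cord, from other mice with the same pair of kits, 3.58% of 14843 genes were called higher and 3.87% lower, 7.45% in either direction, and the ages did not overlap for 54%. Of 1079 control calls tested there, 867 (80.4%) were called in the same direction and 0 in the opposite one, and 80.9% of 1072 cHET calls were called in controls. limma called 0 of 15295 genes for a difference between the genotypes' age shifts, with 952 (6.22%) at an unadjusted p under 0.05 and a smallest adjusted p of 0.085. The cHET mice repeat the age shift together with the kit, so they do not separate age from kit.

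Genes were then read by role, in 36 lists of cell-type and maturation genes. The lists held 530 genes, of which 505 were in the data and 468 passed the filter on low levels. Of these 468, 18 were called higher and 51 lower, beside 3.78% and 3.86% of all genes. Every count of called list members below is to be set beside those shares, or beside 7.64% in either direction. Of the 69 called list genes, 23 share an exon with a gene on the opposite strand and 7 with one on the same strand, and whether reads were assigned by strand is not given in the sources used here. Of the 69, 37 lie in the set of long genes with no shared exon, and all 37 kept their call in a fit of that set alone. Their levels and differences are the same in both fits, so kept calls were nearly certain. The effect of shared exons on the other called genes was not tested.

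**Figure D1:**
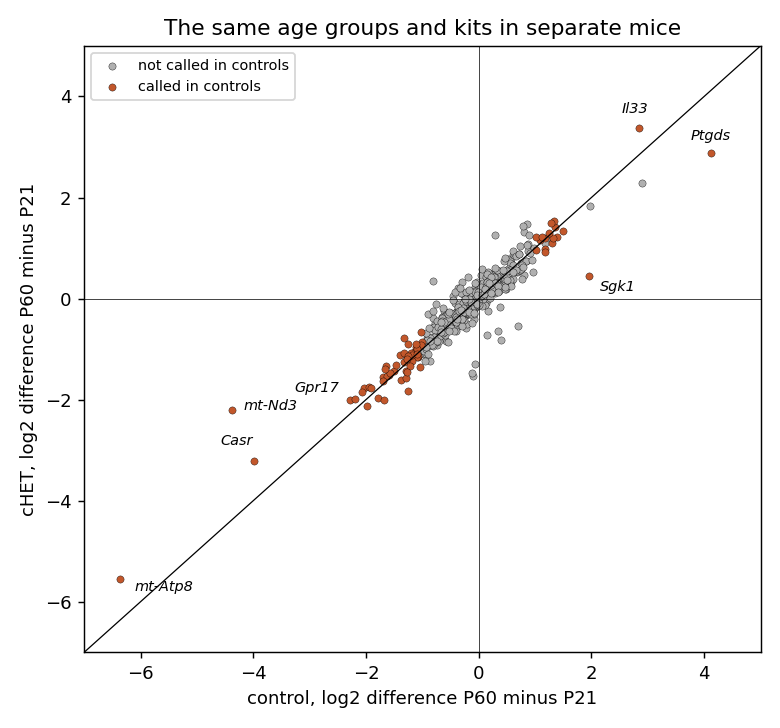
Log2 difference P60 minus P21 in controls (horizontal axis) against that in cHET mice (vertical axis) for the tested list genes, 1 point per gene, orange where called in controls, with the line of equality. Most points lie near the line, while Ptgds (4.11 and 2.88), mt-Nd3 (-4.38 and -2.20) and Sgk1 (1.96 and 0.46) lie off it.

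Structural genes of central myelin were lower at P60. Of 20 proteins of compact myelin, its channels and its junctions, 10 were called lower and 0 higher, beside 3.86% and 3.78% of all genes, and their median difference was -0.98 beside -0.10 for all genes. Together they held 8.17% to 9.07% of all signal in the P21 controls and 3.64% to 4.18% in the P60 controls, a 2.24-fold lower mean share. In whole cord, fewer cells of a type and less RNA per cell cannot be told apart.

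Mbp, which encodes the basic protein that seals the cytoplasmic faces of the sheath, was at 51950, 53930, 48100 and 54310 in the P21 controls and at 20950, 24630 and 22290 in the P60 controls. Every P60 library lay far below the lowest P21 library. Its means were 52070 ± 2841 (SD, n = 4) and 22620 ± 1861 (SD, n = 3), and the difference was -1.20 ± 0.12 (SE; adjusted p = 1.2e-05).

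Cldn11 (GRCm38 chromosome 3, 31149920 to 31164324), the claudin of myelin's tight junctions, showed the lowest difference of the list. Its levels were 2115, 2228, 2043 and 2276 at P21, and 554, 560 and 566 at P60. The P60 libraries were nearly alike and far below P21, a 3.86-fold lower level on the scale of the fit (-1.95 ± 0.06, SE; adjusted p = 2.0e-09). Tspan2, a tetraspanin of the sheath, fell by 1.67. Mog, a protein of the outermost lamella, was at 765, 817, 796 and 835 at P21 and at 262, 284 and 260 at P60, with a difference of -1.58 ± 0.06 (SE; adjusted p = 7.1e-09). Mal, a raft proteolipid, fell by 1.46, Nfasc, whose glial form anchors the paranode, by 1.33, and Cnp, a phosphodiesterase of uncompacted myelin and the locus that drives Cre in the other genotypes, by 1.32.

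The list did not move as a block. Mag, the adhesion molecule of the innermost wrap, was at -0.92 and Mobp at -0.80, both short of 2-fold with no overlap of the ages. Omg was at 0.02 and Ermn at -0.19, and for both the ages overlapped. Plekhb1 at 0.46 and Cntn2, the axonal and glial adhesion molecule of the juxtaparanode, at 0.68 lay in the opposite direction, both with adjusted p under 0.05 and no overlap. Mbp lost its call under quantile normalization and kept it under the other scalings, and it did not pass a test for a change larger than 2-fold (limma treat). Cnp and Tspan2 share exons with genes on the opposite strand. In cHET cord 11 of the 20 were called lower and 0 higher, with a median of -1.08.

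**Figure D2:**
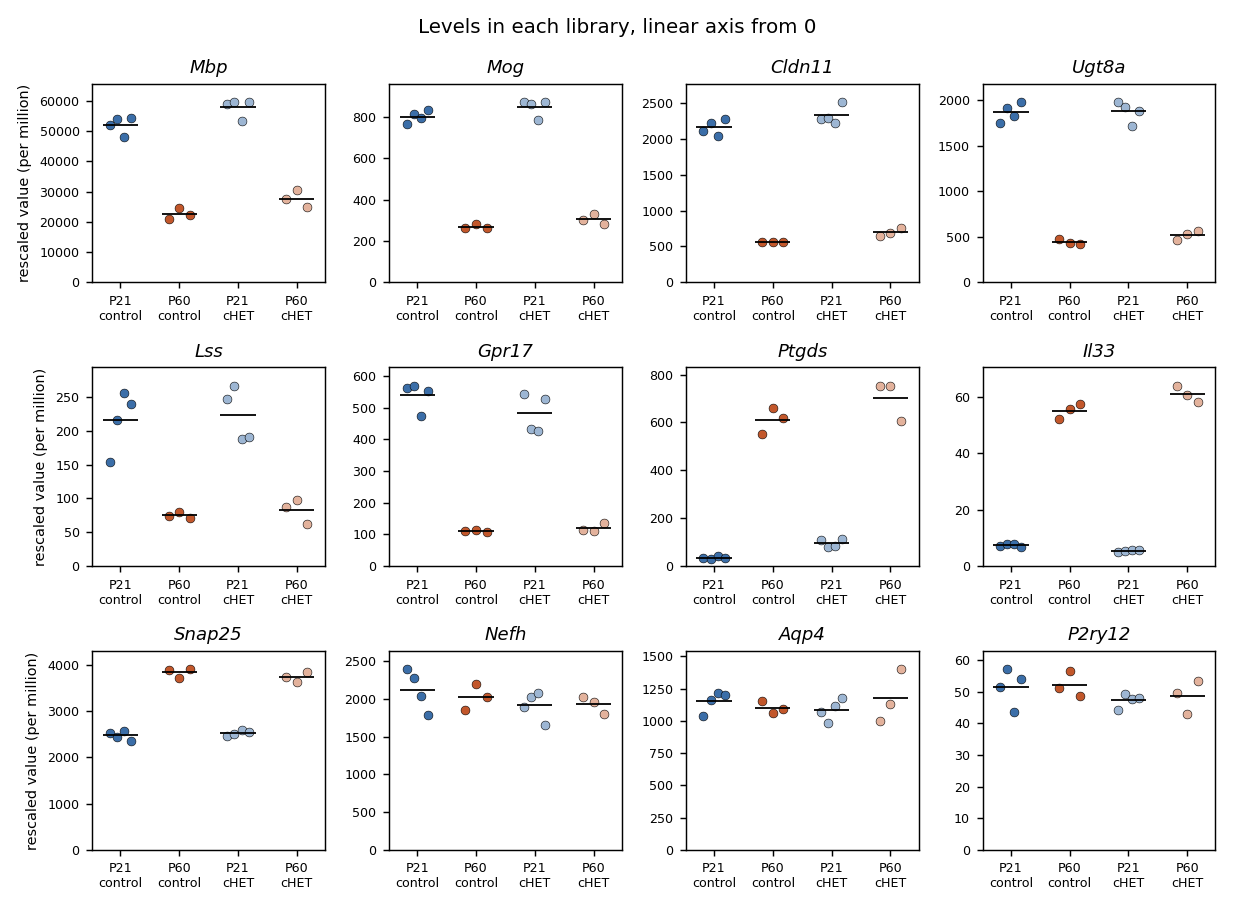
Level of 12 genes in each library (vertical axes, rescaled level, linear from 0) in P21 and P60 control and cHET mice, 1 point per library and a bar at the group mean. Mbp, Mog, Cldn11, Ugt8a, Lss and Gpr17 are lower at P60 in both genotypes, Ptgds and Il33 higher, Snap25 higher by less than 2-fold, and Nefh, Aqp4 and P2ry12 overlap between the ages in controls.

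Of 19 genes of fatty acid and myelin lipid synthesis 4 were called lower, beside 3.86% of all genes, and each takes part in making lipids of myelin. Ugt8a (chromosome 3, 125865271 to 125938619), which adds galactose to ceramide and so makes galactocerebroside, was at 1753, 1909, 1823 and 1984 at P21 and at 471, 432 and 422 at P60. No P60 library came near any P21 library, and the difference was -2.08 ± 0.06 (SE; adjusted p = 2.6e-09). Gal3st1, which sulfates that lipid to sulfatide, fell by 1.59, Cers2, the ceramide synthase for very long acyl chains, by 1.27 and Fa2h, which hydroxylates those chains, by 1.15. The median of the 19 was -0.33. Among the uncalled members, Fasn, the fatty acid synthase, was at -0.12 (adjusted p = 0.29) and Scd1, a desaturase, at 0.03 (adjusted p = 0.63), with overlapping ages for both, while the elongases Elovl1 and Elovl6 were at -0.86 and -0.83 and Acaca, the acetyl-CoA carboxylase, at -0.61 (adjusted p = 6.1e-05).

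Enzymes of cholesterol synthesis were lower at P60. Of 20 enzymes 9 were called lower and 0 higher, 19 had a difference below 0, and 19 had an adjusted p under 0.05 in that direction, beside 55% of all genes in either direction. The median was -0.95, and the enzymes' summed share went from 0.418% to 0.536% at P21 to 0.240% to 0.256% at P60. Lss (chromosome 10, 76531588 to 76557138), which closes squalene epoxide into the first sterol, was at 154, 217, 256 and 240 at P21 and at 73.6, 80.0 and 71.3 at P60. P21 control 1 was the lowest of its age and still lay above every P60 library, and the difference was -1.50 ± 0.14 (SE; adjusted p = 1.0e-05). In the mevalonate arm, Mvd fell by 1.39, Fdps by 1.29, Mvk by 1.22 and Idi1 by 1.10. Later in the pathway, Cyp51 fell by 1.07, and Sqle, the squalene epoxidase, was at -0.94 (adjusted p = 1.0e-06), just short of 2-fold. Sc5d, near the end of the pathway, was the member above 0, at 0.01 with overlapping ages. Hmgcs1, Tm7sf2 and Fdft1, at -1.26, -0.96 and -0.28, have per-library levels that do not give the mean in the authors' deposited tables, so their values are less certain. The summed share is less certain for the same reason, because Hmgcs1 is a large part of it. Its levels were 1390, 1740, 1885 and 1949 at P21 and 738, 719 and 700 at P60.

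The regulators that set this pathway did not show called shifts. Of 9 tested genes of SREBP control and sterol uptake 0 were called. The sterol sensor Scap was at -0.02 and Insig1, which holds the SREBP complex back in the endoplasmic reticulum, at -0.29 (adjusted p = 0.078), both with overlapping ages. In cHET cord the 20 enzymes had a median of -0.96, with 9 called lower. Of the 20, limma treat at 2-fold called 0, so the fall of each single enzyme is not shown to exceed 2-fold.

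Most promoters of this group hold a short element. The letters CCAAT, the box read by the factor NF-Y, were searched on both strands (ATTGG on the other strand), with no other motif searched, in RefSeq windows of GRCm38.p6 that run from 250 bases before a gene's start to 50 after it. They were present in 14 of the 15 cholesterol enzymes with a window (93.3%), and Acat2 lacked them. The share was 41.1% over all 27025 genes with a window and 42.7% over tested genes, 43.8% in 16 myelin proteins, 60% in 15 genes of fatty acid and myelin lipid synthesis and 80% in 20 cell cycle genes. The 150 bases before the RefSeq start of 4 called enzymes are shown to let the element be compared, with each match in capitals: Lss at chr10:76531455-76531604 (+), Mvd at chr8:122443423-122443572 (-), Idi1 at chr13:8885456-8885605 (+) and Cyp51 at chr5:4104698-4104847 (-).
Lss: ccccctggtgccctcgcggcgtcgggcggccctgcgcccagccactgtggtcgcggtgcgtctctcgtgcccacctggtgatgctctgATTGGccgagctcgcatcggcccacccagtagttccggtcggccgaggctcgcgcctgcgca
Mvd: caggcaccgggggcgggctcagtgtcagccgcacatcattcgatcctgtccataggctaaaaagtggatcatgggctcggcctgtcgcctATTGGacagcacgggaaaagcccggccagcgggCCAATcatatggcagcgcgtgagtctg
Idi1: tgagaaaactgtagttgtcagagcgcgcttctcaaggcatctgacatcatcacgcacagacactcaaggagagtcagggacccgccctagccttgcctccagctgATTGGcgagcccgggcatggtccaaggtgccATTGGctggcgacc
Cyp51: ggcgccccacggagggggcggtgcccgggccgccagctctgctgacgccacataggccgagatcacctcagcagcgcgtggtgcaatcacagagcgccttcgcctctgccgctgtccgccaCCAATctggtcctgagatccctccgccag
RefSeq and the annotation used for gene positions place some starts differently, so the Lss, Idi1 and Cyp51 windows run into the gene as that annotation draws it. The match nearest the RefSeq start begins 62 bases before it in Lss, 27 in Mvd, 14 in Idi1 and 29 in Cyp51. A match of these letters is a description of the sequence, and no binding was measured.

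Genes of the newly formed oligodendrocyte were lower at P60. Of 12 tested, 4 were called lower and 0 higher, beside 3.86% and 3.78% of all genes, with a median of -0.80. Gpr17, a receptor whose expression marks the stage just before myelination, was at 560, 569, 473 and 551 at P21 and at 109, 114 and 108 at P60. The ages were far apart, with a difference of -2.28 ± 0.07 (SE; adjusted p = 2.2e-09). Bmp4, a secreted morphogen of that stage, was at 13.4, 17.5, 13.1 and 15.9 at P21 and at 3.65, 3.70 and 2.83 at P60, again without overlap (-1.99 ± 0.13, SE; adjusted p = 9.7e-07). Prom1, a membrane glycoprotein, fell by 1.26. Casr, the calcium-sensing receptor, fell by 3.98, and its levels could be compared with the authors' deposited mean at P21 but not at P60. Enpp6, a choline phosphodiesterase of newly formed cells, was at -0.92, short of 2-fold, and Bcas1 lay the other way at 0.52 (adjusted p = 6.8e-05). Gpr17, Bmp4 and Prom1 share exons with genes on the opposite strand.

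Most precursor genes were lower at P60 by less than 2-fold. Of 14, 11 had an adjusted p under 0.05 in that direction, and 2 were called lower beside 3.86% of all genes: Neu4, a sialidase, by 1.29 and Matn4, a matrix protein, by 1.19, and 0 were called higher, with a median of -0.39. Pdgfra, the growth factor receptor that defines precursors, was at 28.5, 29.8, 27.2 and 28.3 at P21 and at 18.5, 16.8 and 18.2 at P60. The ages did not overlap, but the difference of -0.66 ± 0.07 (SE; adjusted p = 2.4e-05) is short of 2-fold. Cspg4, the other classical precursor antigen, was at -0.29, and Ptprz1 and Vcan were at 0.08 and 0.22 with overlapping ages. Whether the precursor and newly formed lists differ from each other was not tested.

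Transcription factors of the lineage divided into called and uncalled members. Of 14 tested, 5 were called lower and 0 higher, beside 3.86% and 3.78% of all genes, with a median of -0.44. Nkx6-2, a homeobox factor of myelinating cells, was at 95.2, 103, 95.9 and 106 at P21 and at 32.7, 31.3 and 28.1 at P60. That is a clear separation, with a difference of -1.69 ± 0.07 (SE; adjusted p = 2.8e-08). Hes5, a Notch target, also fell by 1.69, Nkx2-2, which is present as precursors begin to differentiate, by 1.64, Olig1 by 1.28 and Sox10, the factor required throughout the lineage, by 1.10. Myrf, which drives myelin gene transcription, was at -0.30 (adjusted p = 6.2e-03) and Sox8 at -0.48. St18 and Sox11 were at 0.15 and 0.22 with overlapping ages. Of the 5, every one but Sox10 shares an exon with a gene on the opposite strand.

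Mitotic genes were at low levels at both ages. Of 23 cell cycle genes tested, 4 were called lower and 0 higher, beside 3.86% and 3.78% of all genes, with a median of -0.53. Mki67, present in all cycling cells, was at 4.27, 6.30, 4.94 and 6.03 at P21 and at 1.50, 2.38 and 2.46 at P60. The ages stood apart at this low level, with a difference of -1.18 ± 0.18 (SE; adjusted p = 3.1e-04). Top2a and Ccnb2, of the later cycle, fell by 1.11 and 1.02, and Cdk1 by 1.02. In cHET cord none of these 3 was called (-0.91, -0.66 and -0.92), while Mki67 was. Pcna, the sliding clamp of replication, was at -0.08, and the helicase subunits Mcm2, Mcm3, Mcm5 and Mcm6 were at 0.60, 0.02, -0.28 and -0.22, none with an adjusted p under 0.05. These counts are fragile, since the number called went from 0 to 7 with the pseudocount and the filter, and Mki67 lost its call without P60 control 1, Top2a without P21 control 2 or P60 control 3, and Ccnb2 without P21 control 3 or P60 control 2 or 3, and also under median-of-ratios scaling and with totals without mitochondrial genes.

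**Figure D3:**
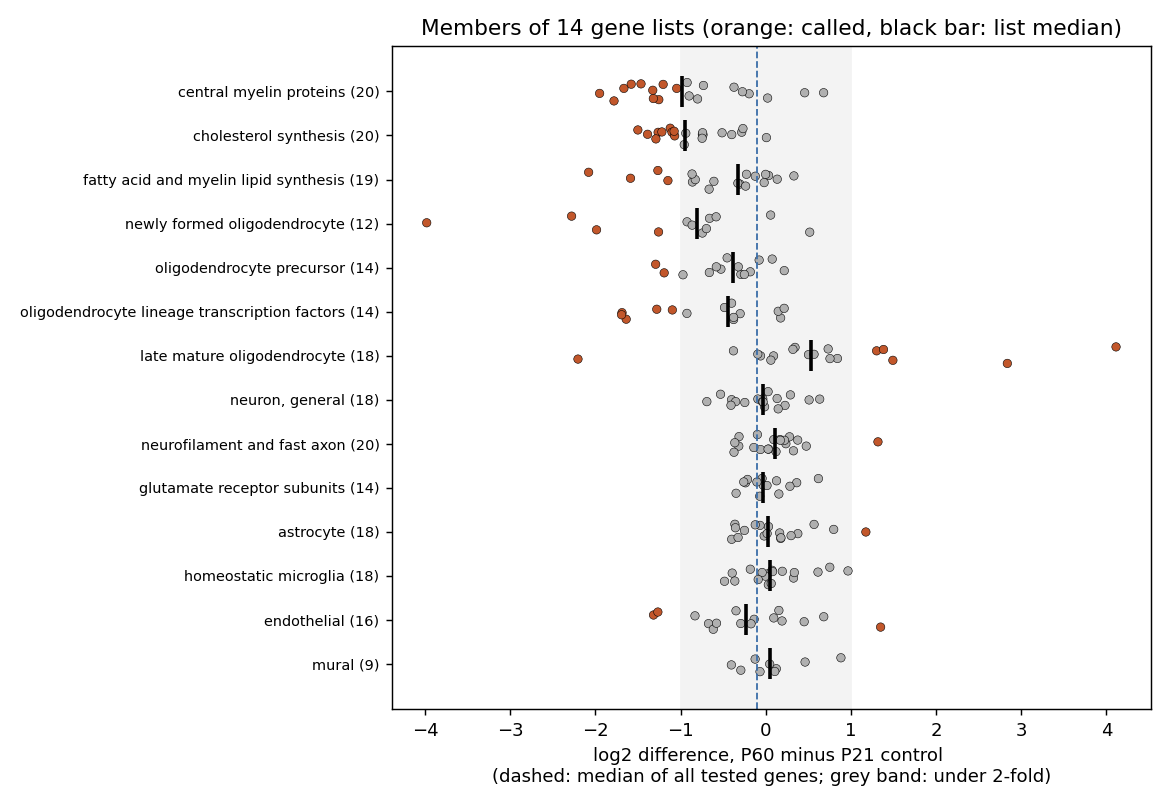
Log2 difference P60 minus P21 in controls (horizontal axis) for the tested members of 14 lists, with the number tested in brackets. Points are genes, orange where called, the black bar is the list median, the dashed line the median of all tested genes and the grey band less than 2-fold. Central myelin (median -0.98), cholesterol synthesis (-0.95) and newly formed oligodendrocyte genes (-0.80) lie to the left, late mature oligodendrocyte genes (0.54) to the right, and neuron, astrocyte, microglia and mural lists near 0.

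Against these decreases, genes of late mature oligodendrocytes were higher. Of 18, 5 were called higher and 1 lower, with a median of 0.54, and 12 of the 18 had an adjusted p under 0.05 in the upward direction. Their summed share was 0.401% to 0.423% at P21 and 0.530% to 0.613% at P60. Ptgds (chromosome 2, 25466709 to 25470046), the prostaglandin D2 synthase of mature oligodendrocytes and of the meninges, was at 34.7, 30.6, 39.9 and 34.2 at P21 and at 551, 661 and 618 at P60. Every P60 library was far above every P21 library, and on the scale of the fit the rise was 17.3-fold (4.11 ± 0.09, SE; adjusted p = 2.2e-10). In cHET cord the difference was 2.88, with 1.23 more in controls (interaction adjusted p = 0.085). Meningeal fibroblast genes made up between 0.0116% and 0.0135% of the signal in P21 controls, overlapping the 0.0106% to 0.0130% seen in P60 controls, with 1 of 10 tested members called lower, Mgp, and 0 higher. Their median was 0.15, with 6 members above 0 and 4 below. At an adjusted p under 0.05, 2 were higher and 2 lower. Dcn was higher in every P60 control, at 0.91 (adjusted p = 2.3e-04), short of 2-fold.

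Il33 (chromosome 19, 29925114 to 29960718), a nuclear cytokine held by mature oligodendrocytes and astrocytes, was at 7.09, 7.86, 7.65 and 6.63 at P21 and at 52.1, 55.9 and 57.6 at P60. The ages were widely separated, with a rise of 7.15-fold (2.84 ± 0.09, SE; adjusted p = 2.3e-09), and in cHET cord it was 3.38. Serpinb1a, a protease inhibitor, rose by 1.49, Grm3, a metabotropic glutamate receptor, by 1.38 and Qdpr, which regenerates tetrahydrobiopterin, by 1.30. Klk6, a serine protease of mature spinal oligodendrocytes, was at 137, 144, 148 and 131 at P21 and at 225, 272 and 259 at P60. It was higher in every P60 library, but its difference of 0.84 ± 0.07 (SE; adjusted p = 5.1e-06) is short of 2-fold. Anxa5, S100b and Car2 were likewise at 0.75, 0.73 and 0.57. Gsn, the actin-severing protein gelsolin, was the member called lower: it was at 549, 609, 548 and 605 at P21 and at 124, 128 and 123 at P60, a fall of 2.20 ± 0.06 (SE; adjusted p = 7.8e-10). Aspa, which splits N-acetylaspartate, was also lower, at -0.38 (adjusted p = 8.5e-04). Apod was at 0.09 and Hopx at -0.06, both with overlapping ages.

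Neuronal genes kept to less than 2-fold, with few exceptions. Of 18 general neuronal genes 0 were called, and their median was -0.03. Snap25, of the vesicle fusion complex, was at 2534, 2449, 2568 and 2366 at P21 and at 3902, 3727 and 3910 at P60. All P60 libraries were higher, with a difference of 0.63 ± 0.06 (SE; adjusted p = 1.3e-05), while Syp, another synaptic vesicle gene, lay the other way at -0.40. Of 20 genes of neurofilaments and fast axons 1 was called, Thy1, a surface glycoprotein of projection neurons, which was at 242, 236, 247 and 245 at P21 and at 535, 648 and 640 at P60 (1.32 ± 0.07, SE; adjusted p = 1.7e-07). Nefh, the heavy neurofilament, was at 2390, 2275, 2043 and 1782 at P21 and at 1858, 2192 and 2028 at P60. These overlap, and the difference was -0.06 (adjusted p = 0.63). Nefl, the light chain, was at -0.32 (adjusted p = 8.7e-03). Of 9 motor neuron genes tested 0 were called, where 7.64% of all genes were, and Chat, Slc5a7 and Prph were not analysed here. The median was 0.35 in controls and -0.05 in cHET cord, and the summed share in controls was 0.0212% to 0.0257% at P21 and 0.0333% to 0.0363% at P60. Among them, Esrrg, of slow motor neurons, was at 0.61, Chodl, of fast motor neurons, at 0.56 and the developmental homeobox gene Mnx1 at -0.66.

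Receptor subunits whose balance changes in maturing neurons held no call in controls and 2 in cHET cord. Of 14 glutamate receptor subunits 0 were called. Grin2a, the NMDA receptor subunit of mature synapses, was at 0.36 ± 0.07 (SE; adjusted p = 8.9e-04) and Grin2b, its juvenile counterpart, at 0.28 ± 0.18 (SE; adjusted p = 0.19), and the largest difference was in Gria1 at 0.62. Of 18 subunits of GABA and glycine receptors and chloride transporters 0 were called. Glra1, the adult glycine receptor subunit, was at 232, 205, 221 and 107 at P21 and at 295, 352 and 312 at P60. All P60 libraries were above all P21 libraries, and the difference of 0.80 ± 0.22 (SE; adjusted p = 0.010) was under 2-fold with P21 control 4 far below its group. Glra2, the juvenile subunit, was at -0.23 ± 0.08 (SE; adjusted p = 0.031). Gabrb1 and Gabra2 were at 0.86 and 0.87. In cHET cord Glra1 and Gabrb1 rose, by 1.31 and 1.06. The Glra1 levels there were 146, 191, 171 and 46.5 at P21 and 325, 310 and 276 at P60. P21 cHET 4 was far below its group, and whether the cHET call holds without that library was not tested. Slc12a2, which loads neurons with chloride, and Slc12a5, which extrudes it, were at -0.39 and -0.35.

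Growth-related neuronal genes were mixed. Of 18 tested, 2 were called lower, and the median was -0.08. Marcks (chromosome 10, 37133375 to 37138920), a kinase substrate that links membrane to actin in growing processes, was at 355, 394, 376 and 454 at P21 and at 154, 107 and 124 at P60. Its relative Marcksl1 was at 332, 349, 306 and 379 at P21 and at 97.3, 107 and 110 at P60. Both pairs of groups were well apart, at -1.63 ± 0.12 and -1.70 ± 0.07 (SE). Dcx, the microtubule protein of migrating neurons, was at -0.80 ± 0.13 (SE; adjusted p = 3.7e-04), short of 2-fold. Stmn1 was at 0.00 (adjusted p = 0.95), and Gap43, of growing axons, at 0.31, above 0.

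Genes of the extracellular matrix around axons and neurons differed mostly by less than 2-fold. Of 13 genes of the perineuronal and perinodal matrix 1 was called lower beside 3.86% of all genes, Hapln2, a link protein of the node, which fell by 1.05. The median was -0.68 in controls and -0.31 in cHET cord. Hapln2 is also counted in the myelin list, and it lay under 2-fold with 3 other scalings. Tnr, Bcan, Tnc and Ncan, tenascins and chondroitin sulfate proteoglycans, were at -0.89, -0.79, -0.76 and -0.73 (adjusted p of 4.6e-06, 7.8e-06, 9.1e-05 and 2.1e-05). Acan, the aggrecan of mature perineuronal nets, lay the other way: it was at 33.1, 28.9, 31.3 and 22.5 at P21 and at 46.5, 55.2 and 53.6 at P60, with no overlap and a difference of 0.84 ± 0.12 (SE; adjusted p = 1.8e-04).

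Astrocyte genes went both ways, nearly all by less than 2-fold. Of 18, 6 were higher and 5 lower at an adjusted p under 0.05, with a median of 0.02, and 1 was called, Glul, the glutamine synthetase that clears glutamate. Their summed share was 0.989% to 1.05% at P21 and 1.06% to 1.18% at P60. Atp1b2, a sodium pump subunit, was at 0.57 and Gjb6, a connexin, at -0.40. Glul was at 256, 218, 191 and 190 at P21 and at 441, 504 and 497 at P60. The ages were well apart (1.18 ± 0.10, SE; adjusted p = 4.5e-06), but Glul shares exons with genes on both strands and was not called in cHET cord (0.93). Aqp4, the water channel of astrocyte endfeet, was at -0.07 (adjusted p = 0.43) and Gja1, their main connexin, at -0.36. Of 13 genes of filaments and reactivity, C4b, a complement component, rose by 1.18 and Cp, the ferroxidase ceruloplasmin, by 1.09, whereas Id3, an inhibitor of differentiation, fell by 1.40 and Aspg by 1.001. Gfap, the astrocyte filament, was at -0.26 (adjusted p = 9.9e-03). Cp lost its call without P21 control 4, and Aspg without P21 control 4 or P60 control 3.

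Of 18 homeostatic microglial genes 0 were called, where 7.64% of all genes were. At an adjusted p under 0.05, 4 were higher and 3 lower, from Olfml3 at 0.97 to Sall1, a transcription factor, at -0.48. Without P60 control 3, 2 were called higher, and 1 was under each of 3 other scalings. The median was 0.05, and the summed share was 0.0635% to 0.0708% at P21 and 0.0621% to 0.0745% at P60. P2ry12, the purinergic receptor of resting microglia, was at 51.4, 57.1, 43.6 and 53.9 at P21 and at 51.1, 56.6 and 48.6 at P60. These overlap throughout, with a difference of 0.02 ± 0.09 (SE; adjusted p = 0.86), and Tmem119 was at 0.00 ± 0.09 (SE; adjusted p = 0.97). Of 13 genes of activated and phagocytic microglia 0 were called. Spp1, which is also made by motor neurons, was at 0.78, Clec7a at -0.78 with overlapping ages, and Apoe, shared with astrocytes, at -0.21. Among 14 genes of interferon response and antigen presentation 0 were called in controls and 3 were called higher in cHET cord, Ifit1, Ifit3 and Oasl2. Without P21 control 3, 3 were called higher in controls.

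Vessel genes diverged. Of 16 endothelial genes 1 was called higher and 2 lower, with a median of -0.23. Kdr (chromosome 5, 75932827 to 75978458), the main VEGF receptor, was at 45.2, 42.7, 36.7 and 30.5 at P21 and at 14.4, 17.3 and 13.9 at P60. All P60 libraries were lower (-1.32 ± 0.13, SE; adjusted p = 1.4e-05), while in cHET cord Kdr was at -0.78 and not called (interaction adjusted p = 0.79). Sox17, an arterial factor, fell by 1.27, and Pecam1, the adhesion molecule of endothelial contacts, rose from 28.2, 29.4, 30.4 and 23.2 to 70.4, 75.8 and 67.5 (1.35 ± 0.09, SE; adjusted p = 1.0e-06). The endothelial genes Tek at -0.17 and Slco1c1 at -0.14 overlapped between the ages. Of 9 mural genes 0 were called, with a median of 0.05. Of 19 tested matrix genes, 17 were below 0, 11 of them at an adjusted p under 0.05, and 1 was called lower beside 3.86% of all genes: Col6a2, a chain of microfibrillar collagen, which fell by 1.91, and the median was -0.39. The basement membrane chains Col4a2 and Col4a1 were at -0.89 and -0.61, and Col3a1 at -0.82 (adjusted p = 0.011).

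Of 15 genes of the growth and imprinted network 1 was called, where 7.64% of all genes were. It was Cdkn1c (chromosome 7, 143458339 to 143461050), an imprinted cell cycle inhibitor, at 40.1, 41.6, 32.9 and 41.1 at P21 and at 9.23, 8.41 and 9.82 at P60. This separation gave -2.03 ± 0.10 (SE; adjusted p = 9.0e-08). Igf2, the fetal growth factor, was at -0.45 with overlapping ages (adjusted p = 0.061). Of 10 immediate early genes 1 was called, beside 7.64% of all genes: Ier2, which fell by 1.10, while Arc and Fos were at -0.85 and -0.63. Of 11 genes of glucocorticoid and thyroid hormone response 1 was called, Sgk1, a kinase induced by glucocorticoids. It was at 106, 50.7, 30.4 and 36.7 at P21, with P21 control 1 far above the rest, and at 163, 214 and 210 at P60. The rise of 1.96 ± 0.33 (SE; adjusted p = 5.6e-04) was 0.46 in cHET cord, where it was not called, and the difference between genotypes did not pass (adjusted p = 0.79). Of 12 clock genes 0 were called.

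Other tissues that a dissected cord can carry were checked. Of 8 tested genes of Schwann cells and peripheral myelin 0 were called, with a median of 0.04, and 4 further members were under the filter. All 12 leukocyte genes were under the filter. Haemoglobin varied by library: Hbb-bs was at 221, 237, 425 and 361 at P21 and at 778, 189 and 144 at P60, so P60 control 1 stood above the other two and no erythrocyte gene was called. Of 11 ependymal genes 1 was called, beside 7.64% of all genes. That gene, Dynlrb2, a dynein light chain, rose by 1.02 at low levels (0.687 ± 0.278, SD, n = 4, to 1.86 ± 0.235, SD, n = 3) and lost its call without P21 control 1 or 3 or P60 control 2. Tardbp, the floxed gene, was at 75.6, 79.8, 86.8 and 76.4 at P21 and at 63.9, 70.8 and 72.0 at P60, a difference of -0.21 ± 0.07 (SE; adjusted p = 0.024) that is well under 2-fold.

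Calls were unevenly spread over gene lengths and classes. Among 151 genes whose longest annotated transcript is at most 500 bases, 62.9% were called, and the share was 18.6% from 500 to 1000 bases, 10.5% to 2000, 6.51% to 4000, 5% to 8000 and 4.22% above that. Of 567 pseudogenes 47.6% were called, and of 186 olfactory receptor genes 46.8%, 85 of them higher. Replication-dependent histone genes, whose messages lack a poly(A) tail, were called in 64% of 25, 15 of them lower, and ribosomal protein genes in 23% of 74. In cHET cord the median was 0.88 beside 0.91 in controls for olfactory receptors, -1.20 beside -1.12 for histones, and 0.081 beside 0.228 for ribosomal protein genes. For transcripts of 500 to 1000 bases it was -0.274 beside -0.139.

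**Figure D4:**
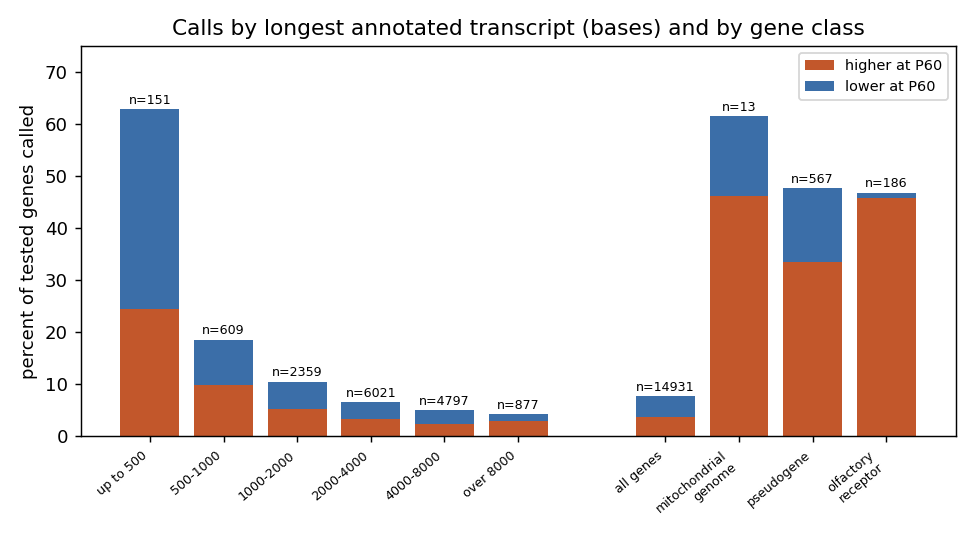
Percent of tested genes called at P60 against P21 in controls (vertical axis), higher in orange and lower in blue, by longest annotated transcript in bases (left) and by class (right), with the number tested above each bar. The share falls from 62.9% in the shortest genes to 4.22% in the longest.

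Genes of the mitochondrial genome moved both ways. Of 13 tested, 6 were called higher and 2 lower. mt-Nd5 rose by 1.34, mt-Nd6 by 1.28 and mt-Nd1 by 1.24, which are subunits of respiratory complex I. The shortest, mt-Atp8 (204 bases), fell by 6.36 and mt-Nd3 (348 bases), by 4.38. mt-Atp8 was at 357, 452, 390 and 399 at P21 and at 28.7, 0.0874 and 6.12 at P60. The P60 libraries differ widely from one another but all lie far below P21. The count of 6 became 2 under quantile normalization and 3 without P60 control 1, the library with the highest mitochondrial share among them. Here, too, age and kit cannot be told apart.

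The largest shifts over protein-coding genes with a level of at least 5 in the higher group were mostly outside the maturation lists. Il17re, a receptor for interleukin 17C, was at 1.50, 1.41, 1.47 and 0.954 at P21 and at 110, 93.5 and 101 at P60 (5.81 ± 0.13, SE; adjusted p = 2.4e-10). Lrrc17 rose by 5.44, Muc6, a gel-forming mucin, by 4.003 and Klf13, a zinc finger transcription factor, by 3.50 from 24.6 ± 2.65 (SD, n = 4) to 281 ± 20.1 (SD, n = 3). 1700047I17Rik2, Gm20388, Gm45062, Gm49369, Gm21750 and Gm5415 rose by 3.47 to 5.90, and Nedd8, at 3.92, has per-library levels that do not give the authors' mean. Gm20388 and Gm45062 share exons with genes on both strands, and Gm49369 with one on the same strand. At P21 the levels were uneven, at 5.1e-06, 2.35, 1.3e-04 and 4.63 for Gm20388 and at 4.87, 8.9e-06, 2.25 and 5.33 for Gm45062. Lrrc17 and Nedd8 share exons with genes on the opposite strand. Among the lowest, Col9a3, a chain of fibril-associated collagen, fell by 2.72, Trpm5, a cation channel, by 3.07, Rassf10 by 2.70, Tmem254c by 2.86, 1810049J17Rik by 2.79, Gm11808 by 4.93 and Olfr1033, an olfactory receptor, by 5.22. Col9a3, Trpm5 and 1810049J17Rik share exons with genes on the opposite strand. Gm45837, which fell by 3.93, could be compared with the authors' means at P21 but not at P60. It shares an exon with a gene on the same strand, and its P60 levels were uneven, at 7.45, 3.2e-05 and 1.1e-04. Whether shared exons bear on these shifts was not tested. All of the genes named here were called in cHET cord in the same direction, so they, too, go with age and kit together.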

How the data were processed

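RNA-seq of spinal cord was used from 7 control mice, with 7 cHET mice beside them and the remaining libraries only in the check of sex labels and in a fit of all 21. The authors deposited per-library values as a signal, normalized and scaled reads per base of gene per the file headers, with totals alike within an age and not between ages. The submitters' processing notes name kallisto 0.43.0, sleuth 0.28.1 and GRCm38, and the role of each, the annotation release and any use of strand are not stated by the sources used. The authors' deposited tables of comparisons give each gene's mean over all libraries of an age as a natural log, and these were used only to check the per-library values against them. At P21, of 18101 genes listed there, 16483 had an equal mean, 901 differed and 717 could not be compared, and at P60 these were 15368, 871 and 689 of 16928, at a tolerance of 1e-06 on that log scale. Because the deposited values are normalized, read depth is unknown and no counting interval is given.

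Each library was rescaled to a total of 1000000, genes at 1 or more in at least 3 of the 7 libraries were kept (14931), and log2(value + 0.5) was fitted with limma 3.58.1 in R 4.3.3 (trended variance, Benjamini-Hochberg adjustment over all genes tested), with age as the only term. The fit was tested on simulated data. The difference between genotypes came from 1 fit of 14 libraries with an interaction term. Replicates are separate mice. Positions, transcript lengths and exon overlaps are from GENCODE on GRCm38, and promoters from RefSeq tables of GRCm38.p6. The members and gene lists were chosen with earlier results of these data known. The rule named up to 3 highest and 3 lowest called genes of each list, the 12 highest and 12 lowest called protein-coding genes (at least 5 in the higher group and above 0 in every library) and a fixed set (93 genes in all); other list members were named after their values were seen. From the fixed set, Col1a1 was under the filter and H19 was not analysed here, and some named genes are not reported here. Alternatives covered the scaling, pseudocount, filter, libraries fitted, sex label, moderation, weights, a test against 2-fold, the authors' means and each library left out; the male-labelled subset and the long genes were added after seeing the data.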

Additional observations from a re-analysis of the deposited data

Results flagged for a closer look

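In 5 of the 93 named genes (5.4%), 1 of the 4 P21 controls stood apart from the other three by Dixon's test, which sets the gap to the nearest library against the range of the group. Chance gives this in about 1 in 20 groups, so the number is close to that share. Groups of 3 libraries were not tested. P21 control 2 was the highest in Muc6, at 0.795 beside 0.330 to 0.359 in the others, and in Gm21750, at 2.29 beside 0.993 to 1.17. It was the lowest in Grin2a, at 27.2 beside 29.1 to 29.3. P21 control 4 was the highest in Gm5415, at 1.13 beside 0.330 to 0.464, and the lowest in Il17re, at 0.954 beside 1.41 to 1.50. In the 4 genes called higher, every P60 control lies above every P21 control by the definition of a call, so that adds nothing here. They kept their call without the library that stood apart. Grin2a was not called, and every P60 control lay above its P21 controls.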

How the results depend on the processing

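Of 73 called named genes, 44 kept their call in each of 22 alternatives that gave a value for them, and 0 changed sign. limma treat at 2-fold kept 44 of 73. The number higher, 564, became 353 with a pseudocount of 2, 327 with a filter at 5, 208 with treat and 356 among long genes with no shared exon, where fewer genes were tested. The number lower, 577, became 369, 165 and 277 with the pseudocount, treat and long genes. Leaving out 1 library gave 399 to 577 higher and 538 to 630 lower. The share of calls that were higher, 49.4%, became 59.7% with totals taken without mitochondrial genes (690 higher, 466 lower) and 38.8% without P60 control 2 (399 and 630). The all-gene median of -0.102 became -0.005 with those totals and -0.014 with median-of-ratios scaling. Cholesterol enzymes called lower went from 9 to 0 with treat and 3 among long genes, and lineage factors from 5 to 3 and 1. No paired analysis was possible because different mice were used at each age and the replicate numbers only name samples. Normalized values leave the depth limit unknown.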
